A study of Mus musculus with 2 samples.

Results

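The genes described here encode the subunits and inhibitors of NF-kB, a family of transcription factors of inflammation and blood cell survival. Of the 10 genes chosen by name, 9 were measured by 17 probe sets that the platform's annotation assigns to that gene alone, out of 18193 genes named in that way. They were Nfkb2, Rela, Relb and Rel among the Rel proteins, Nfkbia, Nfkbib, Nfkbie and Bcl3 among the IkB proteins, and Tnfaip3, which encodes A20. Nfkb1, the 10th gene, was not analysed here, because none of the probe sets used was assigned to it. The arrays held total RNA of mouse haematopoietic stem cells, the bone marrow cells from which all blood lineages arise. There was 1 array of cells from Wip1 knockout mice and 1 of cells from wild-type mice, both at an age of 3 months. The allele and the extent of the deletion, the strain, the sex, the sorting scheme and the number of animals in each sample are not stated in the labels. The only question the arrays can address is how these transcripts differed between these 2 RNA samples.

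Rel proteins bind DNA as dimers. In resting cells the dimers are held in the cytoplasm by IkB proteins, and kinases of the IKK complex mark IkB for destruction when receptors for TNF, interleukin-1 or microbial products are engaged. The p65 subunit encoded by Rela is the main activating partner, RelB acts in the slower non-canonical branch through the p100 precursor encoded by Nfkb2, and c-Rel is prominent in lymphoid cells. NF-kB induces several of its own inhibitors, among them IkB-alpha and the ubiquitin-editing enzyme A20, which closes a negative feedback loop. Wip1, the phosphatase encoded by Ppm1d, is known to dephosphorylate p65, a change in the protein that an RNA array does not measure.

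Promoters of the Rel and IkB genes can carry kB sites, the DNA elements that NF-kB recognises. The letters before the start of these genes can be searched for a form of such an element. The 250 bases upstream of each transcription start in RefSeq (build GRCm38.p6) were searched on both strands for GGGANNNNCC, whose other strand reads GGNNNNTCCC. Of 8 members with a listed promoter, 5 held a match in at least 1 of their 11 windows, whereas 19.7% of 27025 genes did so over all listed windows. Counted by window, 8 of the 11 held a match, against 17.6% of all 32851 windows. Relb and Nfkb1 had no listed window. The following windows are shown 5′ to 3′ on the gene's strand, with matches in capitals, for the abundant inhibitor gene, for the gene of p100, and for the 2 members that differed most between the arrays. Nfkb2 has 3 listed starts, and the first is shown.
Nfkbia, chr12:55492648-55492897, minus strand: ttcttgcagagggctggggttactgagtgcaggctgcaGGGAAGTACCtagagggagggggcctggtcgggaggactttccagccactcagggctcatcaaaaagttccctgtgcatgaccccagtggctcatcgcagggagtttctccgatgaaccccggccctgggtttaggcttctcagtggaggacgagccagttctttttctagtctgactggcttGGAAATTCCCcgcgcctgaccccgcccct
Nfkb2, chr19:46304487-46304736, plus strand: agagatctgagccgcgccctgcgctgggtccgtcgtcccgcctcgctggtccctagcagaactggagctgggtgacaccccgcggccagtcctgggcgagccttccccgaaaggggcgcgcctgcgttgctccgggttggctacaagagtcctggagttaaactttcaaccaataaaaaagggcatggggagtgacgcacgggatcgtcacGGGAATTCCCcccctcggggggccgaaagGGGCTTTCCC
Rel, chr11:23770970-23771219, minus strand: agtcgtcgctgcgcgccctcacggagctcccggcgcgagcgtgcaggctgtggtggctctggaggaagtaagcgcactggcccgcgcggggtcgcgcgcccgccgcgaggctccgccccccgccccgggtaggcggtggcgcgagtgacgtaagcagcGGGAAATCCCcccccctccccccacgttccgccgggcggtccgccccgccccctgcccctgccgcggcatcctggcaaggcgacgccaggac
Bcl3, chr7:19822756-19823005, minus strand: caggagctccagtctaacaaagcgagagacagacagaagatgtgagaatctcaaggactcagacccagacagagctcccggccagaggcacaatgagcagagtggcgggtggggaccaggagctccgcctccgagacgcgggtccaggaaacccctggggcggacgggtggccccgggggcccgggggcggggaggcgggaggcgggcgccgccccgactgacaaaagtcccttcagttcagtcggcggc
In the Nfkbia window, the match nearer to the start was GGAAATTCCC, which began 29 bases upstream of it, and GGGAAGTACC began 212 bases upstream. The Nfkb2 window held GGGAATTCCC, which reads as the motif on both strands at the same place, 39 bases upstream, and GGGCTTTCCC directly before the start. The Rel window held GGGAAATCCC, also a match on both strands, 92 bases upstream. No match to these letters was present in the Bcl3, Nfkbib and Nfkbie windows. A match is a description of the letters and not a measured binding site. Only this form was searched for, so a window without a match is not shown to lack a kB site.

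All 17 probe sets of the members lay above the median of all 45037 probe sets on both arrays, the floor used for detection (25.9 in the knockout and 25.2 in the wild type). Of these, 14 also lay above the 75th percentile of both arrays. Differences are given as log2 of knockout intensity minus log2 of wild-type intensity, after the arrays were centred on each other. The only error estimate the file allows is how far probe sets of the same gene disagree, an SD of 0.22 on the log2 scale over 5084 genes. It contains no variation between animals or arrays, so with 1 array per genotype no test is possible and no p-value is given. Among the 17 member probe sets, 8 were higher and 9 lower in the knockout, and 6 differed by more than that SD. Many other genes did so too. By brightest probe sets, the differences of all detected genes had an SD of 0.28. Relb (-0.25) was the member least far past the SD between probe sets, and 27.6% of these genes had a larger difference in either direction. At least that share of detected genes was thus past the SD between probe sets. The share over all detected probe sets was not counted.

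The targeted gene and some sex-linked transcripts bear on how the samples can be read. The 2 probe sets of Ppm1d had log2 differences of -0.05 and 0.10, and where they lie relative to the deletion is not given, so they may not check the genotype label. The Y-linked gene Eif2s3y was higher in the knockout (149 against 31.8 in the wild type) in 1 probe set and under the floor on both arrays in its other one, and Xist was lower in its 3 probe sets (log2 differences between -0.86 and -0.58). Whether the differences below go with those of the sex-linked transcripts was not tested. With 1 array per genotype, differences that go with these transcripts cannot be told apart from differences that go with Wip1. Markers of stem cells were detected for 10 of 12 genes, 4 higher, 5 lower and 1 identical between the arrays. Procr had intensities of 314 in the knockout and 291 in the wild type, and Kit had 959.9 and 772. Hlf was past 1.5-fold on the higher side (0.70). Slamf1 (144 in the knockout and 230.1 in the wild type, -0.66) and Tek (-0.59) were past it on the lower side. Over all detected genes, 2.32% were that much higher and 1.55% that much lower. No probe set assigned to Ly6a alone was used here.

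Rela, the gene of p65, had nearly the same intensity on both arrays. Its probe set read 814 in the knockout and 855 in the wild type, a log2 difference of -0.06, smaller than the SD between probe sets. Relb read 51.0 in the knockout and 61.1 in the wild type, a difference of -0.25. Both Relb values lay under the 75th percentile of their array.

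Rel, which encodes c-Rel, was the Rel gene that differed most. Its single probe set read 152 in the knockout and 221 in the wild type, a log2 difference of -0.53 or 1.45-fold lower in the knockout. That is just inside 1.5-fold, and 4.95% of the 11440 detected genes had a larger difference in either direction. Nfkb2, the gene of the p100 precursor, went the other way in both of its probe sets. The brighter one read 246 in the knockout and 200.4 in the wild type (0.31), and the dimmer one 149 and 136 (0.15). Relb and Nfkb2, whose products act together in the non-canonical branch, thus had differences of opposite sign.

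**Figure D1:**
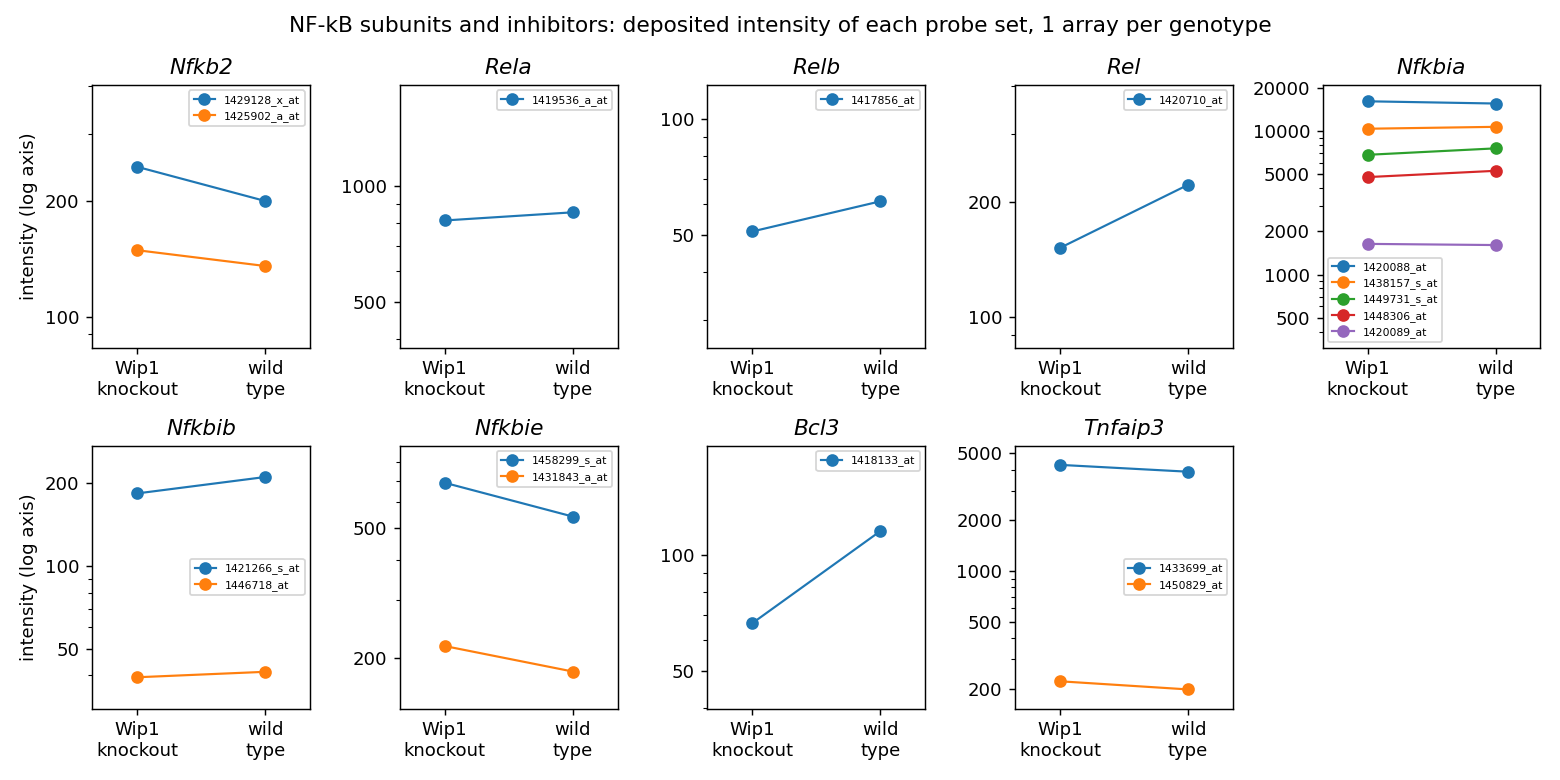
Deposited intensity (log axes) of each of the 17 probe sets of the 9 measured NF-kB genes on the Wip1 knockout array (left) and the wild-type array (right), with a line joining the values of 1 probe set. Axis ranges differ between panels. Bcl3 (66.5 in the knockout, 116 in the wild type) and Rel (152 and 221) are lower in the knockout, both Nfkb2 and both Nfkbie lines are higher there, and the 5 Nfkbia lines run both ways.

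Nfkbia, which encodes IkB-alpha, was bright on both arrays and differed little. Its brightest probe set read 16107 in the knockout and 15540.3 in the wild type, a log2 difference of 0.07, and its dimmest read 1636 and 1606 (0.04). The other 3 probe sets read 10371 in the knockout and 10693 in the wild type (-0.03), 6827 and 7572 (-0.14), and 4775 and 5282 (-0.13). The 5 probe sets therefore disagreed in sign, and all of them stayed within the SD between probe sets. Tnfaip3, the A20 gene, is a second feedback inhibitor. It read 4277 in the knockout and 3895 in the wild type in one probe set and 222 and 198 in the other, with differences of 0.15 and 0.17 that are also within that SD.

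Nfkbie and Nfkbib encode IkB-epsilon and IkB-beta, which also retain Rel dimers in the cytoplasm. Nfkbie was higher in the knockout in both probe sets, with 689.5 in the knockout against 543 in the wild type (0.36) and 217 against 181 (0.27). Both differences were larger than the SD between probe sets, and neither reached 1.5-fold. For the brighter probe set, 13.4% of detected genes had a larger difference in either direction. Nfkbib read 184 in the knockout and 211 in the wild type (-0.18), and 39.4 and 41.2 in a dimmer probe set (-0.05), both within that SD. Of the 5 members with more than 1 probe set, 4 kept one direction in all of them, and Nfkbia did not.

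Bcl3 encodes an atypical IkB protein that acts in the nucleus with p50 and p52 homodimers. It had the largest difference among the 9 members. Its single probe set read 66.5 in the knockout and 116 in the wild type, a log2 difference of -0.78 or 1.72-fold lower in the knockout. The knockout value lay under the 75th percentile of its array (113) and the wild-type value just above that of its own (111). With the floor raised to those percentiles the difference became 0.0037, since that floor replaces the knockout value and nearly equals the wild-type value. No second probe set was available to check it.

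**Figure D2:**
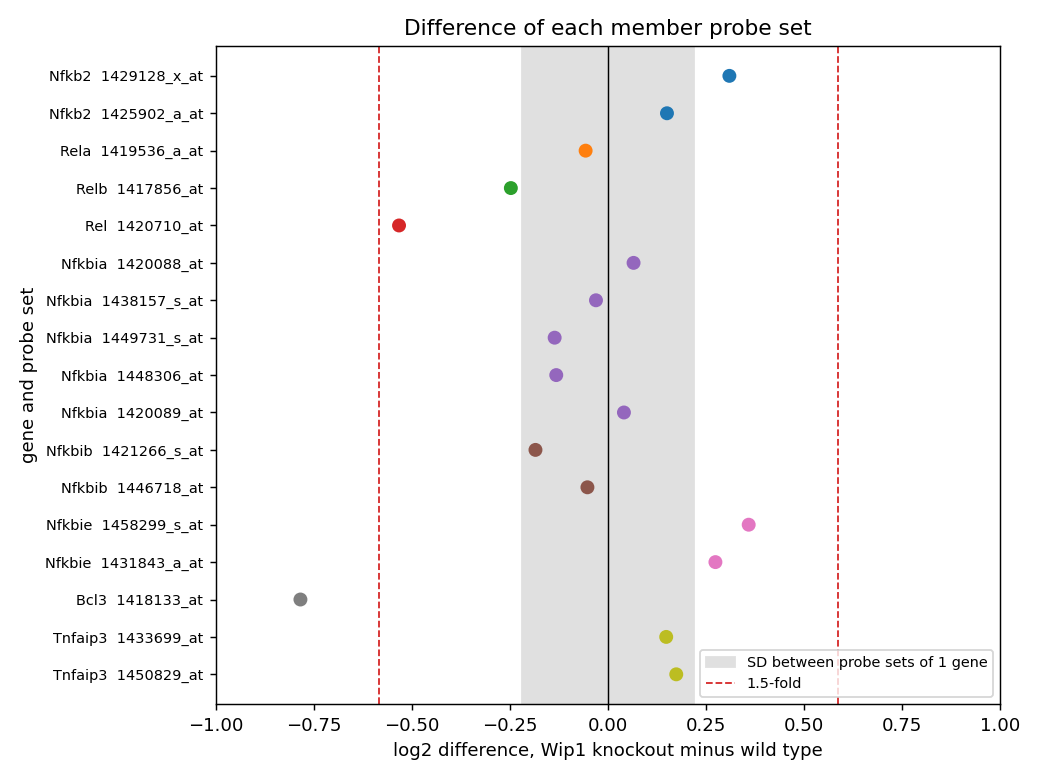
Log2 difference, Wip1 knockout minus wild type, of each of the 17 probe sets, with the SD of 0.22 among probe sets of the same gene shaded and 1.5-fold marked by dashed lines. Bcl3 (-0.78) is the only point beyond 1.5-fold, Rel (-0.53) lies just inside it, and all 5 Nfkbia points lie within the shaded band.

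By their brightest probe sets 4 of the 9 members were higher and 5 lower in the knockout, with a median of -0.06, against a median of 0.00015 over all detected genes. The only member past 1.5-fold was Bcl3, 1 of 9 on the lower side, where 1.55% of detected genes were that much lower. No member was 1.5-fold higher, against 2.32% of detected genes. Among the 4483 detected genes in the intensity range of Bcl3, under the 75th percentile, 1.83% were lower and 3.01% higher by at least 1.5-fold. A single gene past the fold among 9 cannot be set apart from this background. At 2-fold no member was counted, where 0.455% of detected genes were higher and 0.21% lower.

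**Figure D3:**
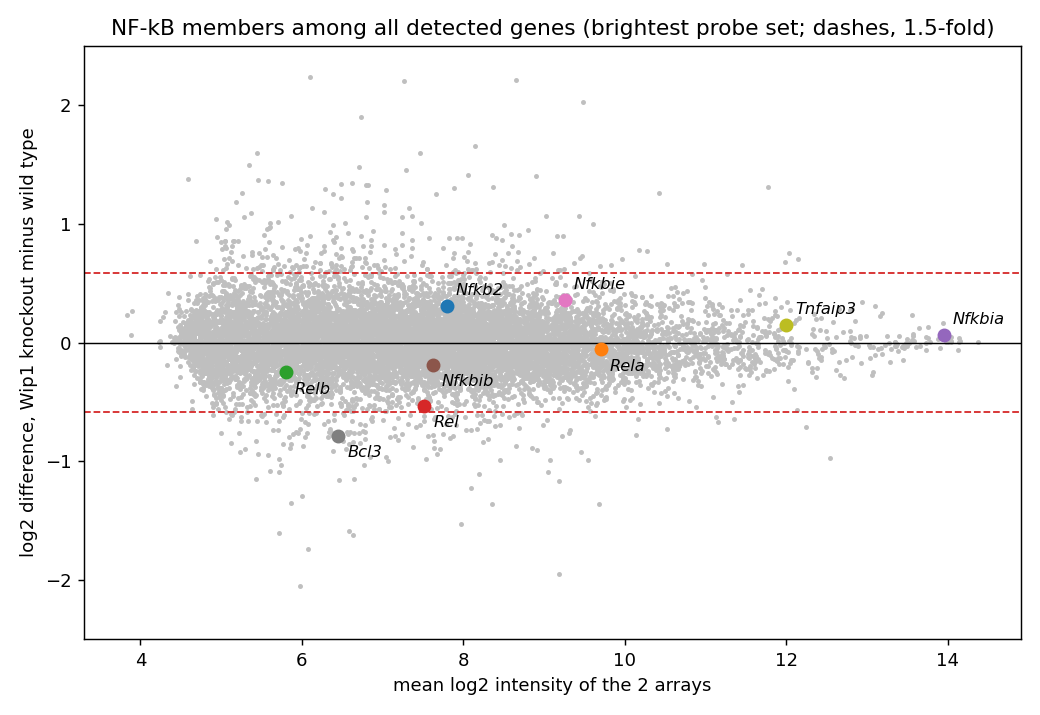
Log2 difference, Wip1 knockout minus wild type, against the mean log2 intensity of the 2 arrays for detected genes, each by its brightest probe set (grey), with the 9 NF-kB members in colour and 1.5-fold as dashed lines. Genes beyond 2.5 on the vertical axis, 1 in number, are not drawn. The members lie within the cloud of other genes, Bcl3 (-0.78) and Rel (-0.53) at its lower edge.

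Ligands and receptors upstream of NF-kB included Il1r1 and Ltb, the genes with the largest differences among the pathway lists examined. Of 19 such genes, 11 were detected, with 6 higher and 5 lower in the knockout and a median of 0.13. Il1r1, the signalling receptor for interleukin-1, read 311 in the knockout and 132 in the wild type, 2.38-fold higher (1.25), and its other probe set was under the floor on both arrays. Ltb, which encodes lymphotoxin-beta, a ligand of the non-canonical branch, read 779.7 in the knockout and 422 in the wild type (0.90) by its only probe set. These 2 were the only detected genes of the list past 1.5-fold on the higher side, where 2.32% of all detected genes were. No detected gene of the list was 1.5-fold lower, against 1.55% of all detected genes. Il1rap, the accessory chain of the interleukin-1 receptor, read 33.5 in the knockout and 43.1 in the wild type (-0.35), close to the floor.

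Kinases and adaptors between receptors and IkB differed little. Of 23 listed genes 19 were measured, all of them detected, with a median of 0.05 and no gene past 1.5-fold. In the knockout 13 were higher and 5 lower, and Map3k14 was identical on both arrays, where 5453 of all 11440 detected genes were higher and 5716 lower. Ikbkg, which encodes the IKK scaffold NEMO, read 292 in the knockout and 208 in the wild type in its brightest probe set (0.50). Its 4 other detected probe sets ranged from -0.21 to 0.21, and one of them was identical between the arrays. Ikbke, an IKK-related kinase gene, read 151 in the knockout and 113 in the wild type (0.44), and Birc2, a ubiquitin ligase gene of TNF receptor complexes, read 359 and 292 (0.31).

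The list of other inhibitors and nuclear IkB proteins had 12 detected genes, 7 higher and 5 lower in the knockout, with a median of 0.12. Nlrc3, which encodes a NOD-like receptor known to restrain Toll-like receptor signalling, read 153 in the knockout and 88.0 in the wild type, 1.75-fold higher (0.81). Its other probe set was under the floor on both arrays. It was the only gene of the list past 1.5-fold, on the side where 2.32% of detected genes were. Nfkbid, another nuclear IkB gene and in that respect a relative of Bcl3, read 2409 in the knockout and 1938 in the wild type (0.33). Tnip2, an A20-binding inhibitor gene, read 78.4 in the knockout and 61.5 in the wild type (0.36).

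Genes known to be induced by NF-kB went both ways. Of 25 listed, 21 were detected, 8 higher and 13 lower in the knockout, with a median of -0.04. Over all 11440 detected genes, 5453 were higher and 5716 lower. The chemokine gene Ccl5 read 274 in the knockout and 446 in the wild type, 1.62-fold lower (-0.69). It was the only gene of the list past 1.5-fold, on the side where 1.55% of detected genes were. Tnfaip2, a TNF-induced gene, was lower in each probe set that was detected, with 253 in the knockout against 370.4 in the wild type (-0.53) and 82.7 against 119.7 (-0.52). The chemokine gene Ccl3 read 2380.0 in the knockout and 1663 in the wild type (0.53). Tnfaip2 and Ccl3, with differences of about the same size, thus stood on opposite sides of 0. The next largest differences were on the lower side, in Icam1 (-0.52) and Cd83 (-0.51). The members themselves also stood on both sides of 0.

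**Figure D4:**
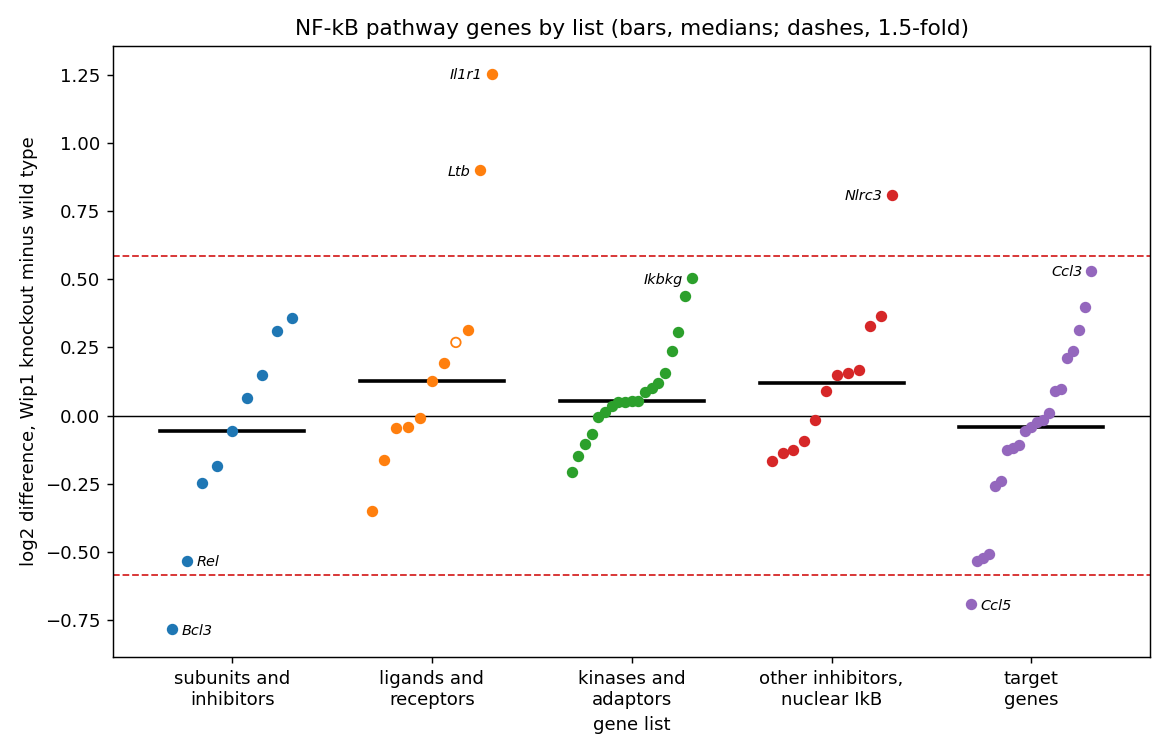
Log2 difference, Wip1 knockout minus wild type, of each detected gene of the NF-kB pathway by list, each gene by its brightest probe set, with list medians as black bars and 1.5-fold as dashed lines. The open circle is a lower bound, since the wild-type value lay under the floor. Il1r1 (1.25), Ltb (0.90) and Nlrc3 (0.81) lie above the upper line, and Bcl3 (-0.78) and Ccl5 (-0.69) below the lower one.

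NF-kB genes are expressed in many blood cells, so markers of other cell types were read on the same arrays. In such a sample, fewer cells of a type and less RNA per cell cannot be told apart. Macrophage and monocyte markers were detected for 9 of 10 genes, 3 of them at least 1.5-fold higher in the knockout, where 2.32% of detected genes were. The summed intensity was 2750.4 in the knockout and 1984 in the wild type, and Csf1r and Ly86 made up most of the difference. Each sum in this paragraph covers all measured genes of a list by their brightest probe sets, also those under the floor. The 3 genes were Csf1r, the receptor of macrophage colony-stimulating factor, with differences of 1.40, 0.98 and 0.35 in its 3 probe sets, Ly86 (0.99), and C1qc (at least 0.85, under the floor in the wild type). Of the 9 detected genes, 6 were higher, 2 lower and 1 identical, with a median of 0.22. C1qa (0.46), Cd68 (0.22) and C1qb (0.15) were higher by less than 1.5-fold. Lyz2 read 1139 in the knockout and 1151 in the wild type, and Cd14 differed by -0.04. Fcgr1 was identical between the arrays, and Adgre1 was under the floor on both. Neutrophil markers were detected for 7 of 8 genes, 2 higher and 5 lower in the knockout, with a median of -0.08. Their sums were 8951 in the knockout and 11104 in the wild type. Mpo, which made up most of the difference between these sums, read 3665 in the knockout and 5498 in the wild type (-0.57). Elane (-0.48) and Camp (-0.26) were also lower, while S100a8 (-0.03) and S100a9 (-0.08) differed little. Ltf (0.11) and Itgam (0.62) were higher. Itgam alone was past 1.5-fold, on the side where 2.32% of detected genes were. B cell markers were detected for 6 of 7 genes, with 3 higher, 2 lower and Pax5 identical between the arrays, and with sums of 339 in the knockout and 299 in the wild type. Of these, Cd22 was below the floor in the knockout and Ebf1 in the wild type. T and NK cell markers were detected for 3 of 9 genes, with Cd3e at 33.4 in the knockout and 39.0 in the wild type, and sums of 148 and 162. Erythroid markers were detected for 5 of 7 genes, 1 higher and 4 lower in the knockout, with a median of -0.28. Their sums were 529 in the knockout and 617 in the wild type. Gata1 was past 1.5-fold on the lower side (-0.84), where 1.55% of detected genes were. Epor (-0.38), Klf1 (-0.28) and Hemgn (-0.07) were also lower. Slc4a1 was higher (0.49), at 40.1 in the knockout and 28.7 in the wild type, close to the floor. No measured marker was listed at 0, and Ly6g was not analysed here. Immediate early genes respond to cell handling, as NF-kB feedback genes can. They were detected for 10 of 10 genes, 8 higher and 2 lower in the knockout, with a median of 0.17. Over all 11440 detected genes, 5453 were higher and 5716 lower. Egr2 alone was past 1.5-fold (0.59), on the side where 2.32% of detected genes were. The part of the immediate early gene differences in the values of the NF-kB genes was not tested.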

How the data were processed

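Total RNA was hybridised to 1 Affymetrix array per genotype. The authors deposited 1 linear intensity per probe set and array. The submitters' processing notes name MAS5 alone, with no version. The deposited intensities of 2535 probe sets (5.63%) were identical on both arrays, 0 of them from members, so how the values were made is not settled. Detection calls were not used here.

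The platform's annotation gave 34945 probe sets 1 gene, 932 several and 9160 none. Of those with 1 gene, 34741 matched the RefSeq gene table (GRCm38.p6), used for symbols and gene order. Intensities were converted to log2 and centred by the median difference over detected probe sets with 1 gene (-0.01). The floor was each array's median, values under it were set to it, and a probe set counted as detected if either array exceeded it. A gene was represented by its probe set with the highest mean. With 1 array per genotype no test was made, and 1.5-fold served as a fixed size. The procedure was tested on simulated data. Python 3.11.15, pandas 2.3.3 and statsmodels 0.14.6 were used.

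The members and lists were chosen with earlier results of these data known. All members are described. Of each pathway list, the genes named are those past 1.5-fold by the brightest probe set, at most 6, or the 3 with the largest difference where fewer than 3 passed. Ppm1d, Kit, Procr, Slamf1, Cd3e and Csf1r were fixed by name, whatever their values. Eif2s3y, Xist, Map3k14, Icam1, Cd83, Egr2 and the other marker genes named were chosen after their values were seen. Alternatives were run for the normalization (no centring, quantile, loess), the floor, an offset, the probe set per gene, the probe set classes and the fold size.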

Additional observations from a re-analysis of the deposited data

How the results depend on the processing

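The number of arrays and their signal over background limit the precision, and the members nearest to the floor were Relb and the dimmer Nfkbib probe set. Across all settings in which they had a value, 16 of the 17 member probe sets kept their direction and moved by under 1 SD between probe sets. Rel lay between -0.55 and -0.47. Bcl3 lay between -0.84 and -0.60, apart from the floor at the 75th percentile, where it was 0.0037 because the floor replaced its knockout value and nearly reached its wild-type value. At that floor 0 members and 0 of the other inhibitors were past 1.5-fold, Nlrc3 was 0.50, and Relb, the dimmer Nfkbib probe set, Il1rap and Tnip2 had no value. At 2-fold in place of 1.5-fold, 0 members were lower. A floor at the 25th percentile and no floor each put 2 target genes past 1.5-fold on the lower side. With the _s_at, _x_at and _a_at classes left out, 1 kinase or adaptor gene was past 1.5-fold. As the median over probe sets Ikbkg was 0.16. The median over the members ranged from -0.15 to 0.04 and that of ligands and receptors from -0.02 to 0.13, so neither has a settled sign. No paired analysis was possible because each genotype had 1 array.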

Other observations

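Relb and Bcl3 lie near each other on chromosome 7, with 10 protein-coding genes between them in the RefSeq gene table. These genes were looked at after the values of Relb and Bcl3 had been seen. Of the 7 with a detected probe set, 1 was at least 1.5-fold lower in the knockout and 0 were 1.5-fold higher, where 1.55% of detected genes were lower and 2.32% higher by that much. Apoe, which encodes apolipoprotein E, had a log2 difference of -0.61, followed by Tomm40, a gene of mitochondrial protein import (-0.40), and Cblc (-0.24). Apoc1 (0.24) and Clptm1 (0.16) were higher, Apoc4 differed by -0.04, and Bcam differed by the centring alone (0.01). Neighbouring genes are not independent replicates, and no test was made.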
